A study of Homo sapiens with 6 samples.

Results

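The heme synthesis set held 9 of the 19330 genes in the footprint table: ALAS1, ALAS2, ALAD, UROS, UROD, CPOX, PPOX and FECH, the enzymes of the pathway, and SLC25A38, the carrier that brings glycine into mitochondria for the first step. Members were chosen by gene symbol and are described in pathway order, and the enzyme between ALAD and UROS was not analysed here. Footprints are the mRNA stretches that ribosomes shield from nuclease, and their count over a coding sequence (CDS) reflects the ribosomes on all copies of that mRNA. They were counted in K562 cells, a human chronic myelogenous leukemia line, as pools rather than clones, 10 days after lentiviral delivery of pLentiCRISPRv2 and following 48 h of puromycin. The 3 sgCtrl libraries came from cells with guides against the olfactory receptor genes OR11A1 and OR2M49 (the latter so spelled in the labels, and OR2M4 in the study's methods), and the 3 sgN6AMT1 libraries from cells with a guide against N6AMT1, the methyltransferase of the release factor eRF1. Both groups therefore carried the vector and had been through selection, and which guide each library carried is not stated. The study describes its replicates as separate transductions, while the labels only number them.

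Heme is made in an 8-step pathway that starts in the mitochondrial matrix, passes through the cytosol and ends with iron insertion back in mitochondria. The first step, the joining of glycine and succinyl-CoA, sets the rate of the pathway and is carried out by ALAS1 in most tissues and by ALAS2 in erythroid cells. ALAS2 translation is known to be held down by iron regulatory proteins on an iron-responsive element (IRE) in its 5′ untranslated region (UTR) when iron is scarce. K562 cells make embryonic and fetal globins and have long served as a model of erythroid heme and hemoglobin production.

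The libraries held 1821356 to 2969736 counts. Levels are given as CPM, that is counts scaled to library size after adjustment by trimmed-mean (TMM) factors, with the SD over 3 libraries. Differences were tested with edgeR's quasi-likelihood test over 9202 genes with Benjamini-Hochberg adjustment and a threshold of 0.05, and log2 fold changes are sgN6AMT1 over sgCtrl. The targeted gene, N6AMT1, was lower in every sgN6AMT1 library (10, 9 and 8 counts) than in every sgCtrl library (25, 24 and 34 counts), with a log2 fold change of -1.51 and an edgeR adjusted p of 6.69e-05. All 11 erythroid markers examined were present, led by the fetal globin genes HBG1 and HBG2, and their summed level was 30500 to 32300 CPM in sgCtrl and 31900 to 33230 CPM in sgN6AMT1. Of 10 markers of other cell types, 4 had enough counts to test (CD3D, EPCAM, COL1A1 and COL1A2) and none of these passed the threshold. Their list summed to 230.6 to 268.5 CPM in sgCtrl and 245.1 to 255.9 CPM in sgN6AMT1, most of it from EPCAM, and MS4A1 and CD14 had no count in any library.

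All 9 members had enough counts to test. ALAS1 and ALAS2 rose, UROD and FECH fell, and the other 5 members did not pass the threshold, so that 4 of 9 members were called, beside 26.9% of all genes tested. The 2 higher members stand beside 12.9% of all genes called higher, and the 2 lower members beside 13.9% called lower. For 6 members the 3 sgCtrl and 3 sgN6AMT1 values were fully separate, 3 higher and 3 lower, beside 37.5% of all genes. DESeq2 called the same 4 members, where its background was 12.3% of the genes given an adjusted p. The median log2 fold change of the members was -0.04, beside 0.01 for all genes tested.

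**Figure D1:**
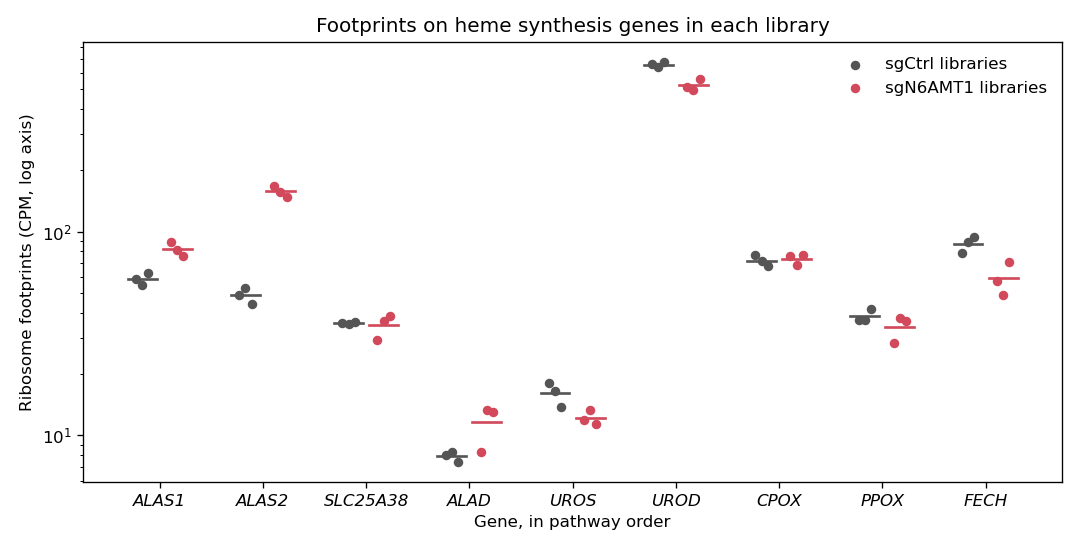
Ribosome footprints (CPM, logarithmic axis) on the 9 heme synthesis genes in pathway order, with one point per library and a line at the mean of each group of 3. ALAS1 and ALAS2 lie higher in sgN6AMT1, UROD and FECH lie lower, and the points of SLC25A38, CPOX and PPOX overlap.

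The first step showed the largest change of the pathway. For ALAS2, the erythroid 5-aminolevulinate synthase, 97, 154 and 89 footprints were counted in sgCtrl, and 383, 361 and 272 in sgN6AMT1. Scaled, this was 48.7, 53.1 and 43.9 CPM against 168, 156 and 148 CPM. Every sgN6AMT1 library lay far above every sgCtrl library. The mean rose from 48.6 ± 4.61 to 157 ± 10.2 CPM (SD, n = 3 each), with a fitted fold of 3.21 (log2 fold change 1.68, SE 0.10, edgeR adjusted p 1.59e-27). Only 8 of the 9202 genes had a smaller p, and 58 of the 1191 genes called higher had a larger log2 fold change. The gene lies on the minus strand of the X chromosome (chrX:55009055-55030977, GRCh38), in 11 exons with a CDS of 1764 bases.

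ALAS1, the synthase used in most tissues, had 58.8, 54.5 and 62.6 CPM in sgCtrl and 88.5, 81.2 and 75.5 CPM in sgN6AMT1. The groups did not overlap. Its mean rose from 58.6 ± 4.07 to 81.7 ± 6.56 CPM (SD, n = 3 each), with a fitted fold of 1.41 (log2 fold change 0.49, SE 0.11, edgeR adjusted p 0.000221). This change was of middling size, since 663 of the 1191 genes called higher (55.7%) had a larger one. ALAS1 lies on the plus strand of chromosome 3 (chr3:52198160-52214327, GRCh38).

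The balance between both synthases was compared per kilobase of CDS, since ALAS1 has the longer CDS (1923 bases). In sgCtrl they stood at similar levels, with 30.5 ± 2.12 CPM per kb for ALAS1 and 27.5 ± 2.61 CPM per kb for ALAS2, and their ranges overlapped. In sgN6AMT1 the level of ALAS2 was 89.1 ± 5.76 CPM per kb and that of ALAS1 42.5 ± 3.41 CPM per kb (SD, n = 3 each). ALAS2 thus took 47.5%, 51.5% and 43.3% of their joint footprints per kb in sgCtrl replicates 1 to 3, and 67.4%, 67.7% and 68.1% in those of sgN6AMT1. The share was higher in 3 of 3 sgN6AMT1 libraries by 20.3 percentage points on average (2-sided exact permutation p = 0.1, the smallest that 3 against 3 can give). Without scaling by length the difference was 20.5 percentage points. No run of 26 bases in the CDS of any member occurred in another CDS that could be annotated, so ALAS1 and ALAS2 shared no exact run of that length. Pseudogenes, UTRs and inexact matches were not searched.

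**Figure D2:**
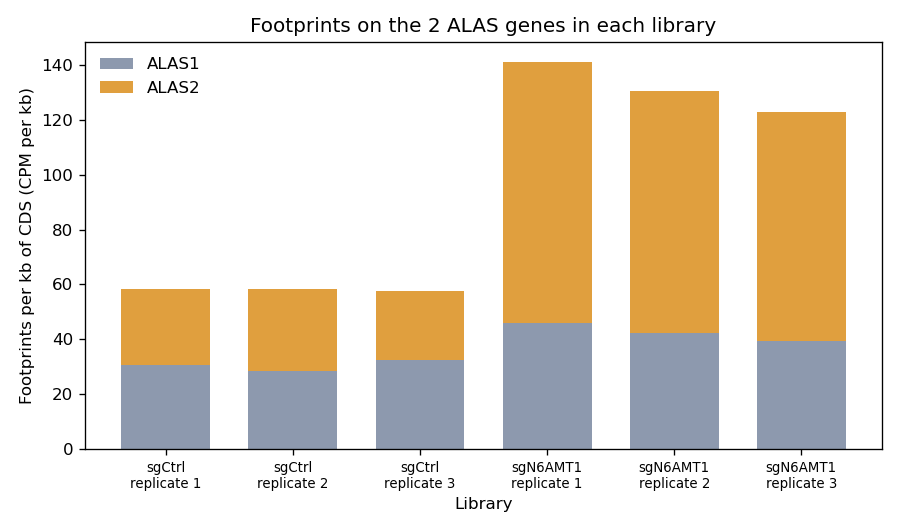
Footprints on ALAS1 and ALAS2 in each library, stacked, in CPM per kb of CDS. The ALAS2 segment takes 43.3% to 51.5% of the bar in sgCtrl and 67.4% to 68.1% in sgN6AMT1.

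SLC25A38, the mitochondrial glycine carrier, had 35.7, 35.2 and 36.0 CPM in sgCtrl and 29.4, 36.3 and 38.5 CPM in sgN6AMT1. The sgN6AMT1 values spread to both sides of the sgCtrl values. The log2 fold change was -0.04 (95% interval -0.32 to 0.24, edgeR adjusted p 0.862). The gene lies at chr3:39383370-39397351 (plus strand, GRCh38).

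Of the 3 cytosolic members, UROD fell, and ALAD and UROS did not pass the threshold. ALAD, which joins 2 molecules of 5-aminolevulinate to porphobilinogen, had only 15 to 31 counts per library. Its levels were 8.04, 8.27 and 7.39 CPM in sgCtrl and 8.33, 13.39 and 13.03 CPM in sgN6AMT1. One sgN6AMT1 library lay just above the highest sgCtrl library and the other two well above. The log2 fold change of 0.53 (95% interval 0.00 to 1.06) missed the threshold after adjustment (edgeR adjusted p 0.134). It passed when sgN6AMT1 replicate 1 was left out (log2 fold change 0.73, edgeR adjusted p 0.0477). ALAD lies at chr9:113386312-113401284 (minus strand, GRCh38).

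UROS, which closes the ring to uroporphyrinogen III, had 18.1, 16.6 and 13.8 CPM in sgCtrl and 11.8, 13.4 and 11.4 CPM in sgN6AMT1. The groups came close but did not overlap. Its log2 fold change was -0.40 (95% interval -0.84 to 0.04, edgeR adjusted p 0.18) at 21 to 48 counts per library. UROS lies at chr10:125788583-125816632 (minus strand, GRCh38).

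UROD, the decarboxylase that yields coproporphyrinogen III, was the most abundant member by far, with 1034 to 1867 counts per library. Its levels were 660.0, 644 and 676 CPM in sgCtrl and 515, 496 and 561 CPM in sgN6AMT1. Every sgN6AMT1 library was lower than every sgCtrl library. The mean fell from 659.9 ± 16.1 to 524 ± 33.9 CPM (SD, n = 3 each), to 0.793 of the sgCtrl level in the fit (log2 fold change -0.33, SE 0.05, edgeR adjusted p 2.4e-07). Of the 1282 genes called lower, 756 (59.0%) had a larger decrease. UROD lies on the plus strand of chromosome 1 (chr1:45012254-45015575, GRCh38).

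The last 3 steps take place in mitochondria, and the terminal one fell. CPOX, the oxidase that makes protoporphyrinogen IX, had 76.3, 72.1 and 67.5 CPM in sgCtrl and 75.8, 68.3 and 76.5 CPM in sgN6AMT1. These values overlapped, with a log2 fold change of 0.03 (95% interval -0.18 to 0.24, edgeR adjusted p 0.882). PPOX, which oxidizes the ring to protoporphyrin IX, had 36.7, 36.9 and 41.9 CPM in sgCtrl and 28.5, 37.6 and 36.4 CPM in sgN6AMT1. It overlapped as well (log2 fold change -0.17, 95% interval -0.45 to 0.10, edgeR adjusted p 0.39), and the log2 fold change was -0.05 without sgN6AMT1 replicate 1 and -0.26 without sgN6AMT1 replicate 2. CPOX lies at chr3:98579446-98593611 (minus strand) and PPOX at chr1:161166426-161171220 (plus strand) in GRCh38.

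FECH, the ferrochelatase that inserts iron into protoporphyrin IX, was covered by 157, 258 and 190 footprints in sgCtrl, and by 130, 113 and 131 in sgN6AMT1. Scaled, this was 78.9, 88.9 and 93.7 CPM against 57.0, 48.8 and 71.1 CPM. All sgN6AMT1 values lay below all sgCtrl values, with sgN6AMT1 replicate 3 nearest to them. The mean fell from 87.2 ± 7.56 to 59.0 ± 11.3 CPM (SD, n = 3 each), to 0.668 of the sgCtrl level in the fit (log2 fold change -0.58, SE 0.11, edgeR adjusted p 1.98e-05). A larger decrease was seen in 289 of the 1282 genes called lower (22.5%). FECH lies on the minus strand of chromosome 18 (chr18:57549584-57586693, GRCh38).

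**Figure D3:**
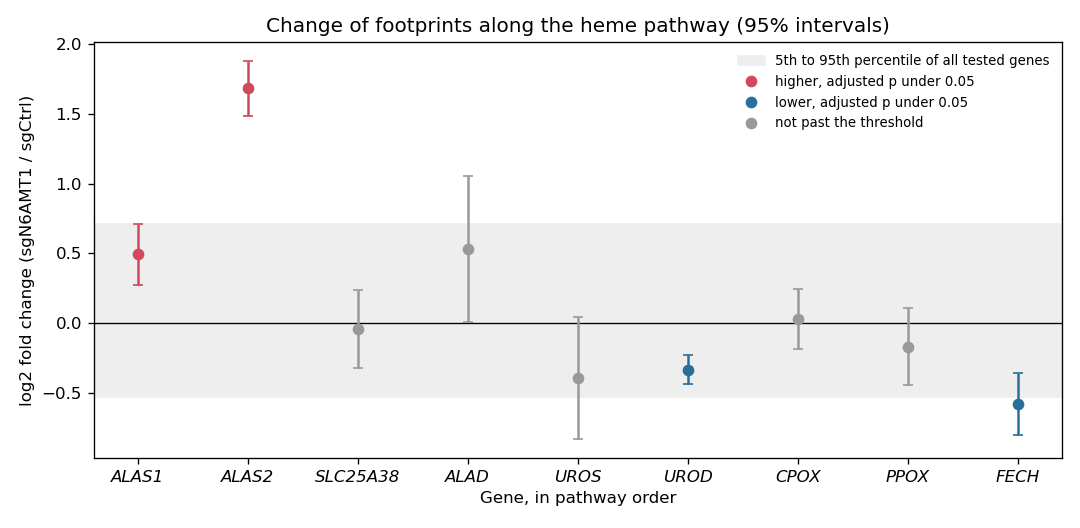
Log2 fold change (sgN6AMT1 over sgCtrl) of the 9 members in pathway order with 95% intervals, over a band from the 5th to the 95th percentile of all 9202 tested genes (-0.53 to 0.71). ALAS2 lies far above the band at 1.68, and FECH at -0.58 lies just below it.

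The ends of the pathway therefore moved in opposite directions. Footprints per kb on ALAS1 and ALAS2 together were 0.779, 0.694 and 0.647 times those on FECH across sgCtrl, and 2.62, 2.83 and 1.83 times across sgN6AMT1. Against UROD the same sum was 0.0973, 0.100 and 0.0938 times in sgCtrl and 0.303, 0.291 and 0.242 times in sgN6AMT1. These ratios rest on the members called above and were not tested on their own.

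Summed over all 9 members, footprints changed little. The sum was 1021, 1009 and 1043 CPM in sgCtrl and 982, 951 and 1031 CPM in sgN6AMT1, and the groups overlapped. UROD made up most of it. Without ALAS2 the sum was 972.5, 956.0 and 998.8 CPM in sgCtrl and 813.9, 794.5 and 883.8 CPM in sgN6AMT1, with no overlap. Without UROD the sum was 361, 365 and 367 CPM in sgCtrl and 467, 455 and 470.1 CPM in sgN6AMT1, with no overlap. ALAS2 carried this difference: without UROD and ALAS2 the sum was 312, 312 and 323 CPM in sgCtrl and 299, 299 and 322 CPM in sgN6AMT1, and the groups overlapped.

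In sgCtrl, levels per kb ran from UROD (598 ± 14.6 CPM per kb) through FECH (82.5 ± 7.16), CPOX (52.7 ± 3.23), SLC25A38 (38.9 ± 0.45), ALAS1, ALAS2, PPOX (26.8 ± 2.07) and UROS (20.2 ± 2.72) to ALAD (7.96 ± 0.46). The neighbours ALAS1 and ALAS2, and ALAS2 and PPOX, did not differ beyond their spread. In sgN6AMT1, ALAS2 went from rank 6 to rank 2 behind UROD (474 ± 30.7 CPM per kb), and FECH (55.8 ± 10.7) went to rank 3. There FECH overlapped with CPOX (53.9 ± 3.36), and ALAS1 with SLC25A38 (38.0 ± 5.23). The share of UROD among all members' footprints per kb was 67.5% ± 0.57 in sgCtrl and 59.0% ± 0.85 in sgN6AMT1, and that of ALAS2 was 3.12% ± 0.35 and 11.1% ± 1.12 (SD, n = 3 each). The listed FECH transcript has a CDS of 1056 bases, and with the 1272 bases of its MANE Select transcript the level was 68.5 ± 5.95 CPM per kb in sgCtrl, still at rank 2, and 46.4 ± 8.87 CPM per kb in sgN6AMT1, at rank 4 below CPOX.

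Footprints reflect the amount of an mRNA as well as its translation, and RNA sequencing was not analysed here, so the part of each in these changes was not tested. In bulk lysates a change within each cell and a change in the share of cells making a transcript cannot be told apart. N6AMT1 acts on a release factor, so the stop codons of the members are shown with the 9 coding bases before and 6 bases after them, the stop codon in capitals, from GENCODE release 44 (GRCh38):
ALAS1: gctcaggccTGAgcatga
ALAS2: acctatgccTGAgaagcc
ALAD: aaggaggaaTGAtggaga
UROS: ggctgctgcTGAgtcagc
UROD: cgacagaacTGAgtgtat
CPOX: tgggtgcgtTGAtgcagg
PPOX: cctaacagcTGAtcccca
FECH: cagcagctgTGAcccccg
SLC25A38: ctgaagtccTGAccaaga

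All 9 members ended in TGA, the members that rose, those that fell and those that did not pass the threshold. TGA was the stop codon of 49.1% of the 8590 tested genes with a complete CDS. Of these 4217 genes, 518 were called higher and 526 lower (24.8% in all), beside 29.4% called among genes ending in TAA and 27.5% among those ending in TAG. Averaged over transcripts, the study found that ribosome occupancy at stop codons did not differ between the groups. The base after TGA was G in ALAS1, ALAS2, UROS and UROD, T in ALAD, CPOX and PPOX, and C in FECH and SLC25A38, so that TGAG was shared by both members that rose and by UROD, which fell. Before the start codon, the 5′ UTRs of ALAS1, ALAD, FECH and SLC25A38 held at least 1 upstream ATG in the listed transcripts (for SLC25A38, in MANE Select), as did 39.4% of tested genes. In the MANE Select transcripts, FECH had none and UROS had 1. The CDS GC content of the members was 48.1% to 59.4% (median 55.2%, beside 50.9% for all tested genes).

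ALAS2 is the member for which a translational control element in the mRNA is best known. Its 5′ UTR of 51 bases, in the MANE Select transcript of GENCODE release 44, holds the core of an IRE at bases 11 to 36 of the transcript, 15 bases before the start codon. Pairing was checked only for the 5 bases on each side of the loop, and not for the outer bases. The window is shown with the bulged C and the CAGTGC loop in capitals:
ALAS2 IRE: cgttCgtcctCAGTGCagggcaacag

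The search was for C, 5 bases and CAGTGN with 5 paired bases in the upper stem, on the transcript strand, which 17 of 17016 5′ UTRs held (0.0999%). A match is a description of the letters and no evidence of binding. Of the 17 genes, 8 were tested, with 3 called higher and 2 lower, beside 12.9% and 13.9% of all genes tested. Next to ALAS2, FTH1, the ferritin heavy chain that stores iron, rose from 91.6 ± 11.8 to 171 ± 12.9 CPM (SD, n = 3 each; log2 fold change 0.88, edgeR adjusted p 7.97e-15). FTH1 has processed pseudogenes, so its count is uncertain. ADAR, an RNA-editing enzyme, had a log2 fold change of 0.20 (edgeR adjusted p 0.0467). SLC40A1, the iron exporter ferroportin, fell from 35.0 ± 1.50 to 12.6 ± 4.82 CPM (SD, n = 3 each; log2 fold change -1.43, edgeR adjusted p 5.77e-10). GART, an enzyme of purine synthesis, had a log2 fold change of -0.49 (edgeR adjusted p 3.71e-14) and lies on chromosome 21, where 34 of 79 tested genes were called lower and 2 higher. The genes matched by this search included both directions. The pattern is strict and its matches are not a list of known IRE genes, so genes with an IRE of another form can be missed. A part of iron regulation in these changes was not tested.

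The 250 bases upstream of the ALAS2 start site (RefSeq, GRCh38.p14, minus strand, chrX:55030978-55031227) are shown because ALAS2 had the largest change, with GATAA and CACCC, the letters read by GATA factors and by CACCC-binding factors such as KLF1, in capitals on either strand:
ALAS2 upstream: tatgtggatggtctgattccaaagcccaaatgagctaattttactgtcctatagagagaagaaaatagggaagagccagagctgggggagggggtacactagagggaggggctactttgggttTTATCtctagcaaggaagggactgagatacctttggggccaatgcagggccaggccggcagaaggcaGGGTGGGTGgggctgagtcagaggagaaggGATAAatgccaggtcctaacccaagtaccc

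This window held GATAA 2 times and CACCC 2 times, the latter overlapping. Among all 35116 promoters, 20.4% held GATAA and 54.7% CACCC on either strand. A RefSeq promoter was matched for 8 of 9 members, all but UROS. Besides ALAS2, GATAA occurred in CPOX (2 times) and at the second start site of PPOX (1 time), neither of which passed the threshold, and not in the windows of ALAS1, UROD or FECH. CACCC occurred 3 times each in SLC25A38 and at the second start site of PPOX, and 2 and 1 times at the start sites of ALAD. None of these members passed the threshold. It occurred 1 time in ALAS1, and not in UROD, CPOX or FECH.

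Genes around the pathway are counted by list beside the same background, 12.9% of all tested genes higher and 13.9% lower. Of 16 genes of heme and porphyrin transport and mitochondrial iron supply, 12 were tested, with 2 higher, 1 lower and 9 not past the threshold (median log2 fold change 0.07). SLC25A39, the mitochondrial glutathione carrier, rose from 36.9 ± 2.66 to 52.1 ± 6.02 CPM (SD, n = 3 each; edgeR adjusted p 0.00125). FLVCR1, named as a heme exporter, had a log2 fold change of 0.36 (edgeR adjusted p 0.0309). ABCB10, a mitochondrial transporter needed for heme production, had one of -0.28 (edgeR adjusted p 0.0282). None of the 3 passed in DESeq2 (adjusted p 0.0549 to 0.28). Without sgCtrl replicate 2 only SLC25A39 and no lower gene of the list remained past the threshold, and the same held without sgN6AMT1 replicate 2. Without sgCtrl replicate 3 there was 1 higher and no lower gene, without sgN6AMT1 replicate 3 there was 1 higher gene, and without sgCtrl replicate 1 there were 2 lower genes. ABCB10 did not pass without sgN6AMT1 replicate 1 either. Scaled by total counts without TMM factors, 4 genes of the list were higher and none lower. SLC25A28, FLVCR2, TSPO2 and ABCG2 had too few counts.

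Of 10 genes of heme degradation and heme sensing, 7 were tested. EIF2AK1, the heme-regulated kinase of translation initiation factor eIF2, rose from 92.2 ± 14.1 to 128 ± 4.17 CPM (SD, n = 3 each; log2 fold change 0.45, edgeR adjusted p 4.65e-05). BLVRA, a biliverdin reductase, rose as well (log2 fold change 0.41, edgeR adjusted p 0.000666). BLVRB, its counterpart, fell by 0.20 on the log2 scale (edgeR adjusted p 0.00361), and BACH1, the heme-binding repressor of heme oxygenase, fell by 0.42 (edgeR adjusted p 0.00672). Neither decrease passed without sgCtrl replicate 1, and BACH1 did not pass in DESeq2. BACH1 lies on chromosome 21 near N6AMT1, where the median log2 fold change was -0.26. HMOX1, NR1D2 and HEBP1 had too few counts, with HMOX1, the inducible heme oxygenase, at 0.

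The 5 tested genes of heme A and heme c synthesis, which convert heme for respiratory chain proteins, did not pass the threshold (median log2 fold change -0.17). FDX2 was not matched under that symbol. Of 9 genes of glycine and succinyl-CoA supply, none was higher and 3 were lower. OGDH and DLD, subunits of the 2-oxoglutarate dehydrogenase complex that makes succinyl-CoA, fell from 157 ± 4.23 to 125 ± 10.3 CPM (edgeR adjusted p 0.000756) and from 509 ± 18.3 to 436 ± 4.80 CPM (edgeR adjusted p 0.000714; SD, n = 3 each). DLST, another subunit of that complex, did not pass the threshold (log2 fold change -0.17, edgeR adjusted p 0.222), and its groups overlapped. SHMT2, the mitochondrial serine hydroxymethyltransferase that releases glycine, had a log2 fold change of -0.16 at the edge of the threshold (edgeR adjusted p 0.0495). It did not pass in 11 of 17 alternative analyses.

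Of 10 genes listed as erythroid regulators, 1 was higher and 3 were lower (median log2 fold change -0.25), beside 12.9% and 13.9% of all genes. The list also holds the iron regulatory proteins ACO1 (log2 fold change -0.26, edgeR adjusted p 0.0809) and IREB2 (-0.09, edgeR adjusted p 0.414). Neither passed the threshold, and the groups were separate for ACO1 and overlapped for IREB2. LMO2, the bridging protein of the GATA1 and TAL1 complex, fell from 41.1 ± 1.795 to 15.3 ± 3.91 CPM (SD, n = 3 each; log2 fold change -1.44, edgeR adjusted p 1.39e-11). GATA1, a transcription factor that activates ALAS2 in erythroid cells, fell from 310.0 ± 11.8 to 253 ± 15.9 CPM (SD, n = 3 each; log2 fold change -0.29, edgeR adjusted p 0.000135). KLF1, another erythroid activator, fell by 0.37 on the log2 scale (edgeR adjusted p 0.00094), while TAL1 rose by 0.48 (edgeR adjusted p 0.00126). Of the 11 erythroid markers, 4 were higher and 2 lower. TFRC, the transferrin receptor that takes up iron, fell from 1952 ± 63.0 to 1551 ± 52.2 CPM (SD, n = 3 each; edgeR adjusted p 1.49e-09), and the glycophorin gene GYPC rose (log2 fold change 0.64, edgeR adjusted p 2.49e-06). Among the globin genes, HBE1 (log2 fold change 0.48), HBA1 (0.37) and HBA2 (0.32) rose and HBZ (-0.27) fell, with edgeR adjusted p of 5.85e-05 or less. HBG1 and HBG2, the most abundant, did not pass the threshold (-0.01 each), and the globin genes include near-identical pairs whose counts are uncertain.

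**Figure D4:**
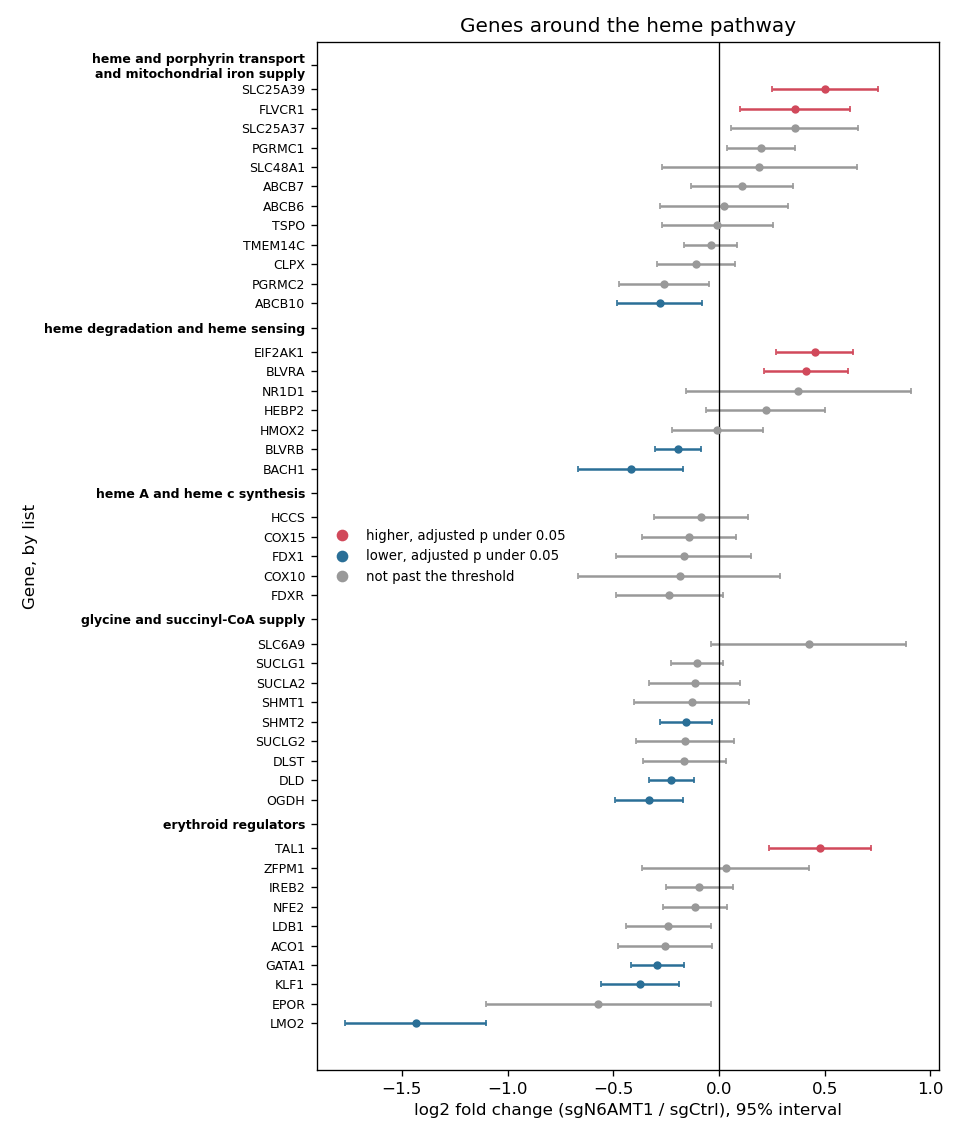
Log2 fold change (sgN6AMT1 over sgCtrl) with 95% intervals of the tested genes in 5 lists around the heme pathway, coloured by direction where the edgeR adjusted p was under 0.05. Most intervals reach 0 or lie close to it, and LMO2 at -1.44 lies farthest from it.

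The genes with a profile most like that of ALAS2 were sought among 7803 genes with at least 10 CPM, by the root mean square distance of log2 CPM, centred per gene, over the 6 libraries. The nearest was EPAS1, which encodes the hypoxia-inducible factor HIF-2α, at a distance of 0.08. It had 16.6 ± 1.17 CPM in sgCtrl and 51.6 ± 2.15 CPM in sgN6AMT1 (SD, n = 3 each). SCG3, a secretory granule protein, and UBE2H, a ubiquitin-conjugating enzyme, followed at 0.11 each. Their log2 fold changes were 1.79 and 1.71, beside 1.62 for EPAS1 and 1.68 for ALAS2. The search picks genes that differ between the groups as ALAS2 does, so this closeness follows from it. Shared regulation of these genes was not tested.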

How the data were processed

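The authors trimmed reads with cutadapt, removed rRNA and tRNA reads after HISAT2 mapping to GRCh38, mapped the rest to canonical transcripts with bowtie2 and summed riboWaltz P-sites over each CDS. The deposited values are whole-number counts per transcript, not normalized. Overlap counts on a gene annotation were also made, and which of both the table holds is not stated. Since the methods mention no molecular identifiers, reads may not be independent molecules.

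Counts were tested in R 4.3.3 with edgeR 4.0.16 (filterByExpr, minimum 10 counts, TMM factors, robust quasi-likelihood F test, 2-sided), with DESeq2 1.42.0 and limma 3.58.1 as alternatives. The filter removed 0.465% of counts. In data simulated for this comparison, 88.3% of the 197 genes given a change, among 9185, were found by edgeR, and 9 calls were false. Recovery at the log2 fold changes of the called members, or with as many changed genes as the 2473 called here, was not tested. Intervals are 95%, from the SE. Transcripts were matched to GENCODE release 44 (91.5% of 19330). For ALAS2, CPOX and SLC25A38 the MANE Select transcript was used. All count columns belonged to the 6 libraries.

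Members and lists were chosen with earlier results of these data known. The text names N6AMT1, all members, in each related list up to 3 genes a direction with the smallest p past the threshold, genes under the count filter, and the 3 nearest profiles. The IRE matches, the markers named, ACO1, IREB2, DLST and the chromosome 21 values fall outside this rule and were chosen after their values were seen. Chi-square per degree of freedom was 1.25 to 1.68 between replicates and 4.89 to 7.04 between libraries of different groups. A few genes are not reported here and were left out of the lists and of the IRE search.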

Additional observations from a re-analysis of the deposited data

How the results depend on the processing

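The calls of ALAS1, ALAS2, UROD and FECH held in all 17 alternatives run, with log2 fold changes of 0.43 to 0.55, 1.62 to 1.76, -0.39 to -0.28 and -0.73 to -0.46 and a highest adjusted p of 0.0118 over the 4 (ALAS1 in DESeq2). DESeq2 called 1324 genes of the whole table, edgeR 2473. Scaling by total counts without TMM factors moved the median gene from 0.01 to 0.06 on the log2 scale and gave 1560 higher and 976 lower genes, beside 1191 and 1282. Of the 5 members not past the threshold, only CPOX and SLC25A38 changed sign in any alternative. CPOX had a log2 fold change of -0.0198 after thinning to the smallest library and -0.006 with CDS length and GC trends removed, and -0.0142 to 0.0813 when 1 library was left out (lowest without sgCtrl replicate 3). SLC25A38 had 0.0117 with total counts and -0.118 to 0.0683 when 1 library was left out (highest without sgN6AMT1 replicate 1). ALAD had 0.39 to 0.73 when 1 library was left out, and passed at 0.73. PPOX had -0.26 to -0.05 when 1 library was left out. The FECH level was 82.5 CPM per kb with the listed CDS and 68.5 with the MANE Select CDS. Among the genes listed as erythroid regulators, 5 were lower without sgN6AMT1 replicate 3. Thinning, the trends and the MANE Select CDS were chosen after seeing the data, and a coding length from RefSeq proteins was not run. Correlations between libraries of the same replicate number were -0.08, 0.00 and 0.02, and those between unlike numbers ran from -0.09 to 0.10. No pairing by number was seen. Replicates differed little beyond counting noise, so these correlations cannot exclude one. With the replicate number as a block, 1167 genes were higher and 1223 lower, and 4 members passed. ALAD and UROS had the fewest counts of the members, and recovery at such counts was not tested.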
